A study of Mus musculus with 6 samples.

Results

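The neuronal nicotinic acetylcholine receptor genes of retinal ganglion cells (RGCs), Chrna2 to Chrna7 and Chrnb2 to Chrnb4, were followed from the embryonic to the early postnatal retina. The 9 genes were taken by symbol from a table of 24060 genes, and they comprise 6 alpha and 3 beta subunits. The samples were RGCs of C57BL/6 mice, 3 from embryonic day 18 (E18; replicates 1, 3 and 4) and 3 from postnatal day 5 (P5; replicates 6, 8 and 9), and no genetic change or treatment is named for either age. Cells were freed from the retina with papain, macrophages were removed with antibodies, and RGCs were then held on dishes coated with antibodies against CD90 (Thy1). The labels do not say whether samples came from separate animals or litters, so p-values measure the spread between these samples, which may be technical. The authors give depletion of ribosomal RNA before sequencing, whereas the labels name polyA RNA. The samples held 81213639 to 114512853 reads assigned to genes. E18 replicates 1 and 3 stood apart from the other samples in the summed levels of starburst amacrine, dividing and progenitor markers. The endothelial and pericyte sum was also high in these 2 samples, but nearly all of it was 1 gene, Kdr.

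Nicotinic receptors are channels of 5 subunits that open when acetylcholine binds and let sodium and calcium into the cell. In the developing retina, starburst amacrine cells release acetylcholine in spontaneous waves that sweep over neighbouring RGCs before vision begins, and mice without the beta 2 subunit lack normal waves of this kind. Gap junctions carry waves earlier, and glutamate carries them later. The subunits alpha 2, alpha 3, alpha 4 and alpha 6 form the binding site together with beta 2 or beta 4, whereas alpha 5 and beta 3 occupy an accessory position and alpha 7 can form channels on its own. RGCs also carry nicotinic receptors on their axons in the brain, where alpha 6 and beta 3 are characteristic.

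Of the 9 subunit genes, 3 were lower at E18 than at P5 (Chrna6, Chrna7 and Chrna2), 1 was higher (Chrna4) and 5 did not pass the test. The test was edgeR's quasi-likelihood test on TMM-normalized counts, with Benjamini-Hochberg adjustment over all 16449 genes that passed the expression filter and a threshold of 0.05. Across those genes, 43.4% passed, 20.8% as higher at E18 and 22.5% as lower, so the share of subunit genes that passed was close to the share of all genes. The median log2 fold change (E18 over P5) was -0.18 for the 9 genes and 0.00473 for all genes tested. All 9 passed the filter, Chrna2 only through its P5 values. In these bulk samples, fewer cells of a type and less RNA per cell cannot be told apart.

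**Figure D1:**
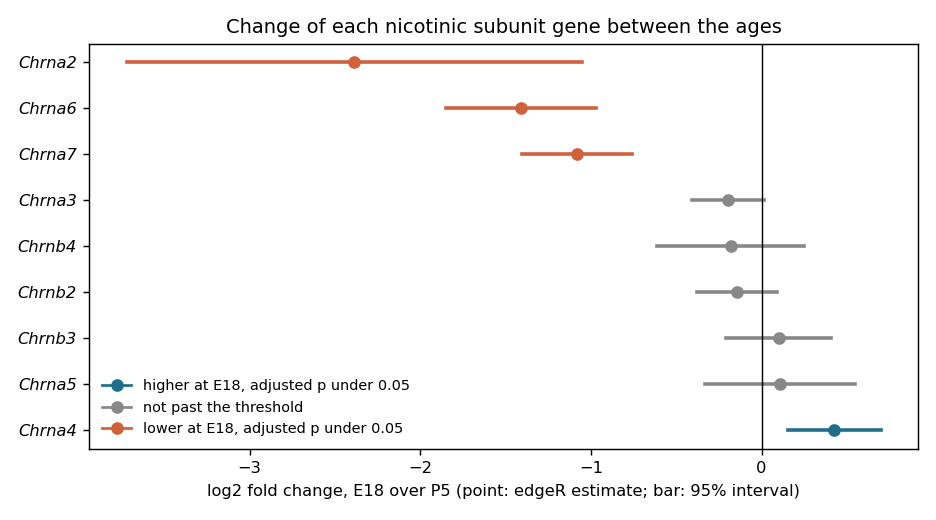
Log2 fold change, E18 over P5, of the 9 nicotinic subunit genes (points, edgeR estimate; bars, 95% interval), with colour for the side of the threshold. Chrna6 (-1.41), Chrna7 (-1.08) and Chrna2 (-2.39) lie left of 0, Chrna4 (0.43) lies right of it, and the intervals of the other genes include 0.

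The genes lie on 6 chromosomes, in 2 clusters and 4 single positions (mm10, GENCODE M21). Chrnb3 (27368711 to 27399730, plus strand) and Chrna6 (27403212 to 27413944, minus strand) are neighbours on chromosome 8, with 3481 bases between their ends. Chrna5 (54980880 to 55007779, plus strand), Chrna3 (55010111 to 55026562, minus strand) and Chrnb4 (55028154 to 55048779, minus strand) follow each other on chromosome 9. In the RefSeq annotation of GRCm38.p6 the ends of Chrna5 and Chrna3, which are on opposite strands, overlap by 1304 bases. Whether counting used strand is not given in the sources used here, so reads from this stretch cannot be told apart. Chrna2 is on chromosome 14 (66135039 to 66152948, plus strand), Chrna4 on chromosome 2 (181018380 to 181043546, minus strand), Chrna7 on chromosome 7 (63098692 to 63212569, minus strand) and Chrnb2 on chromosome 3 (89746195 to 89764632, minus strand). The exons of Chrnb2 share 1365 bases with Adar, an RNA-editing enzyme gene on the plus strand, in GENCODE, and the RefSeq spans of both genes share 8 bases.

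RefSeq promoter windows of GRCm38.p6 were matched by symbol for 6 of the 9 genes (Chrna3, Chrna4, Chrna5, Chrna7, Chrnb2 and Chrnb4). The 200 bases from 250 to 51 before the start site are shown for 4 genes. Chrna7 was lower at E18, and Chrnb2, Chrna3 and Chrna5 did not pass the test. The RefSeq span of Chrna5 begins at 54980827, inside the end of its window. These 4 windows were chosen since none holds an exon of its gene in GENCODE (a second Chrna5 window does). They are written 5′ to 3′ on the strand of the gene, and capitals mark the sequence GGGCGG on either strand, the core that the factor Sp1 binds.
Chrna7, chr7:63212577-63212776, minus strand: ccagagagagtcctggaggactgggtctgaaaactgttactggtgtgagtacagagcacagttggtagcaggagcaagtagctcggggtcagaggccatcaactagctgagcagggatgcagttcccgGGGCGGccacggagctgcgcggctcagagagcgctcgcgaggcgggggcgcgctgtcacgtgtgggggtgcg
Chrnb2, chr3:89764683-89764882, minus strand: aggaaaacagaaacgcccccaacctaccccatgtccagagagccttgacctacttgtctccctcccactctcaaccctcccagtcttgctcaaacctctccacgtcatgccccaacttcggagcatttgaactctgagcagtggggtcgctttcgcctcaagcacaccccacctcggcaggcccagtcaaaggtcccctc
Chrna3, chr9:55026613-55026812, minus strand: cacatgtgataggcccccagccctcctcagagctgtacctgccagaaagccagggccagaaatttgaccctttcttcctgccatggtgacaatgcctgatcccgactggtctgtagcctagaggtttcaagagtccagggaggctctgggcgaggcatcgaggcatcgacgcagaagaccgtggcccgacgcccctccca
Chrna5, chr9:54980630-54980829, plus strand: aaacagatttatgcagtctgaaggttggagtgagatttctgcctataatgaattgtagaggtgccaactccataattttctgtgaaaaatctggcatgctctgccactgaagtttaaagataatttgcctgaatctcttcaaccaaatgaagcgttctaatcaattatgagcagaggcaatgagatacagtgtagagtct
The windows of Chrna7, Chrnb2, Chrna3 and Chrna5 had 64.0%, 58.0%, 60.0% and 38.0% G and C, against a median of 51.5% over 32851 windows of the same length. GGGCGG occurred 1 time in the Chrna7 window and in none of the other windows shown, and 24.6% of all windows held it. Among the windows not shown, it occurred 2 times for Chrna4, 3 times in the second Chrna5 window and 0 times for Chrnb4. The E-box CANNTG, which reads the same on both strands, occurred 2 times in the Chrna7 window, 1 time in the Chrnb2 window, 2 times in the Chrna3 window and 1 time in the Chrna5 window, and 59.0% of all windows held it. Among the windows not shown, the E-box occurred 0 times for Chrna4, 2 times in the second Chrna5 window and 1 time for Chrnb4. The sequence ATTAAT was also searched and occurred in none of the windows of the subunit genes, and 3.75% of all windows held it. A match is a description of the sequence and not a measured binding site.

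Chrna6, the alpha 6 subunit of receptors on RGC axons, had the highest level of the subunit genes at P5 and was 2.66-fold lower at E18. Its values in CPM (read counts scaled to a common library size after TMM) were 238, 236 and 308 at E18 and 735, 497 and 845 at P5, with means of 260.4 ± 41.0 and 692 ± 178 (SD, n = 3 each). Every E18 sample lay below every P5 sample, and P5 replicate 8 was the nearest to E18. The log2 fold change was -1.41 (standard error 0.193, 95% interval -1.85 to -0.97, adjusted p = 0.000965 in edgeR). The raw counts behind it were 19703 to 79456 reads per sample. At E18, Chrnb2 had about the same mean (260.3 CPM), and in replicate 3 it was above Chrna6 (274 against 236 CPM).

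Chrnb3, the accessory subunit that joins alpha 6 in receptors, did not pass the test although it lies beside Chrna6. Its values were 99.8, 96.1 and 103 CPM at E18 and 99.9, 73.0 and 105 CPM at P5. The ages overlapped, with P5 replicate 8 below all other samples. The log2 fold change was 0.10 (95% interval -0.21 to 0.41, adjusted p = 0.575 in edgeR). Leaving out P5 replicate 8 turned the sign, to -0.064. Within each sample, the level of Chrna6 per kilobase of exon was 5.22, 5.38 and 6.58 times that of Chrnb3 at E18 and 16.1, 14.9 and 17.6 times at P5. This ratio did not overlap between the ages (two-sided exact permutation p = 0.1, the smallest that 3 samples against 3 can give).

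Chrnb2, the beta subunit of the receptors that carry cholinergic waves, did not pass the test. Its values were 234, 274 and 273 CPM at E18 and 264, 283 and 315 CPM at P5, so the ages overlapped. The log2 fold change was -0.14 (95% interval -0.38 to 0.09, adjusted p = 0.286 in edgeR). Adar shares exon bases with it in GENCODE, but reads were counted on RefSeq genes, whose spans share 8 bases in GRCm38.p6. The part of Adar in the Chrnb2 counts was not tested.

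Chrna4, the alpha subunit that pairs with beta 2 in the brain's most abundant nicotinic receptor, was the only subunit gene higher at E18. It had 93.1, 112 and 90.4 CPM at E18 and 64.3, 75.1 and 80.3 CPM at P5. All E18 values were above all P5 values, and replicate 3 was the highest. The log2 fold change was 0.43 (standard error 0.120, 95% interval 0.15 to 0.70, adjusted p = 0.0204 in edgeR), a 1.34-fold difference. The call was lost without E18 replicate 3 (log2 fold change 0.33, adjusted p = 0.0898 in edgeR) and without P5 replicate 6 (log2 fold change 0.33, adjusted p = 0.0771 in edgeR).

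Starburst markers were highest in the same sample as Chrna4. The 7 markers (Chat, Slc18a3, Slc5a7, Megf10, Sox2, Fezf1 and Slit2) summed to 317, 575 and 109.8 CPM in E18 replicates 1, 3 and 4, and all P5 sums lay below that of replicate 4, the lowest at 87.2 CPM. Of the 7, 6 were higher at E18, against 20.8% of all genes tested, and Sox2 is also a progenitor marker. Without overlap between the ages were 2 of the 7, both higher at E18, against 27.6% of all genes tested that were higher without overlap. The call of Chat was lost in 4 omissions of 1 sample, with adjusted p of up to 0.117 in edgeR. The calls of Fezf1 (without E18 replicate 3, P5 replicate 6 or P5 replicate 9, adjusted p of up to 0.0789 in edgeR) and Sox2 (without P5 replicate 6, 0.0502 in edgeR) were lost. E18 replicate 4, with the lowest starburst sum of its age, had 90.4 CPM of Chrna4, against 64.3 to 80.3 CPM at P5. The part of starburst cells in the Chrna4 values was not tested.

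Chrna3, the alpha 3 subunit, best known from autonomic ganglia, had 94.96, 98.4 and 92.2 CPM at E18 and 117, 98.8 and 110 CPM at P5. The ages did not overlap, but the nearest samples, E18 replicate 3 and P5 replicate 8, were almost equal. Its log2 fold change of -0.19 (95% interval -0.40 to 0.02) did not pass edgeR's quasi-likelihood test (adjusted p = 0.122). Without P5 replicate 8 it passed, with a log2 fold change of -0.28 and an adjusted p of 0.0156 in edgeR. Counting the genes whose ages did not overlap, 5 of the 9 subunit genes did not (4 lower and 1 higher at E18), against 56.1% of all genes tested (28.5% lower and 27.6% higher).

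The cluster neighbours of Chrna3 stood at far lower levels. Chrna5, an accessory subunit, had 6.20, 6.98 and 5.38 CPM at E18 and 5.39, 7.07 and 4.77 CPM at P5, and its log2 fold change of 0.11 (95% interval -0.33 to 0.55, adjusted p = 0.682 in edgeR) turned negative (-0.012) when P5 replicate 9 was left out. Chrnb4, the usual partner of alpha 3 in autonomic ganglia, had 3.35, 2.93 and 2.66 CPM at E18 and 3.47, 3.67 and 2.99 CPM at P5. Its log2 fold change was -0.18 (95% interval -0.61 to 0.25, adjusted p = 0.467 in edgeR). The ages overlapped in both, and none of the 3 genes of this cluster passed the test.

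Chrna7, which forms channels permeable to calcium without a beta subunit, was 2.12-fold lower at E18. It had 6.58, 6.42 and 7.64 CPM at E18 and 12.7, 15.0 and 16.0 CPM at P5, from 546 to 1506 reads per sample. The ages stood well apart, and the samples of each age lay close together. The log2 fold change was -1.08 (standard error 0.143, 95% interval -1.41 to -0.76, adjusted p = 0.000853 in edgeR).

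Chrna2, a subunit found in few brain regions, was barely detected. It had 5, 4 and 1 reads in the E18 samples and 18, 12 and 23 in the P5 samples, or 0.0357 ± 0.0246 and 0.190 ± 0.0624 CPM (SD, n = 3 each). The log2 fold change was -2.39 (95% interval -3.72 to -1.05, adjusted p = 0.0118 in edgeR), and the call was lost without E18 replicate 3 (adjusted p = 0.0512 in edgeR). Since the gene passed the filter only through the age at which it is high, the filter favoured a difference in this direction. Its call is therefore given as a description only.

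**Figure D2:**
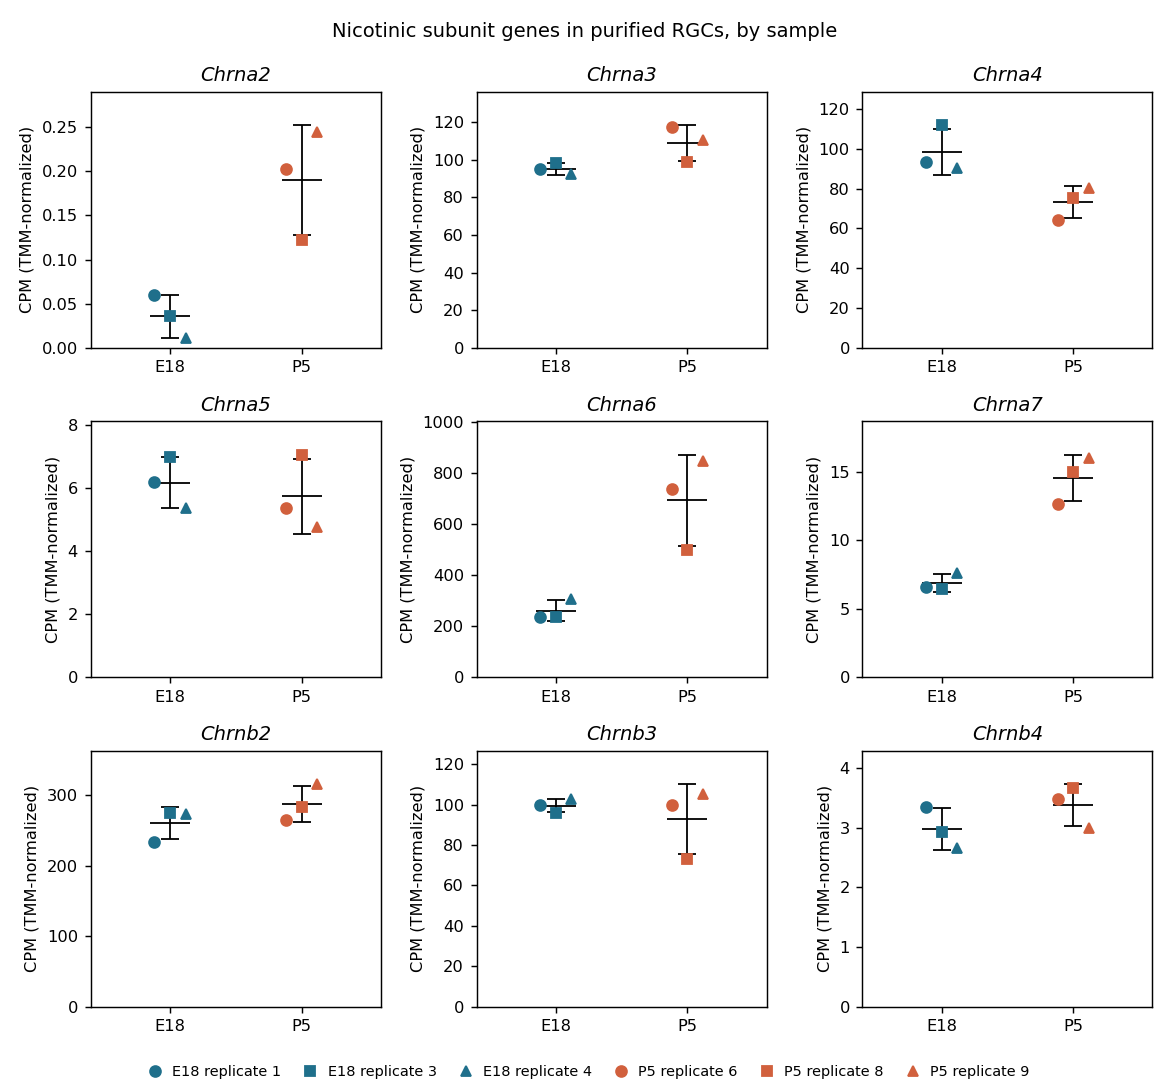
CPM (vertical axes, starting at 0) of each subunit gene in the 3 E18 and 3 P5 samples, with 1 symbol per replicate and bars for the mean and SD. The ages stand apart in Chrna6, Chrna7, Chrna2 and Chrna4, nearly touch in Chrna3 and overlap in the other 4 genes.

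Levels of different genes were compared per kilobase of exon (CPM per kilobase, over the union of each gene's exons), the scale of RPKM. The lengths are from GENCODE, whereas reads were counted on RefSeq genes, and some spans differ. That of Chrnb2 begins at 89746195 in GENCODE and at 89753448 in RefSeq. The effect of this difference on levels and shares was not tested. At E18 the order was Chrna6 (89.6 ± 14.1), Chrnb2 (31.1 ± 2.74), Chrna4 (19.6 ± 2.32), Chrna3 (18.08 ± 0.589), Chrnb3 (15.6 ± 0.509), Chrna5 (1.98 ± 0.257), Chrna7 (1.53 ± 0.147), Chrnb4 (0.800 ± 0.0935) and Chrna2 (0.00942 ± 0.00650; SD, n = 3 each). Among neighbours in this order, the samples of Chrna4 and Chrna3 overlapped and the others did not. At P5 the means were 238 ± 61.2 for Chrna6, 34.3 ± 3.08 for Chrnb2, 20.7 ± 1.78 for Chrna3, 14.6 ± 1.62 for Chrna4, 14.6 ± 2.72 for Chrnb3 and 3.23 ± 0.376 for Chrna7 (SD, n = 3 each). There, the samples of Chrna4 and Chrnb3 overlapped, Chrna3 stood above Chrna4, and Chrna7 stood above Chrna5 (1.84 ± 0.380). With coding length or the longest transcript as the length, Chrna6 and Chrnb2 remained the top 2 genes at both ages and Chrnb4 and Chrna2 the bottom 2, whereas the genes between them changed places.

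Set against the 15628 tested genes with an annotated length, Chrna6 ranked 336 at E18 and 63 at P5. Chrnb2 lay above 90.7% of these genes at E18 and 91.6% at P5, and Chrna3, Chrna4 and Chrnb3 lay above 77.8% to 84.7%. Chrna5, Chrna7 and Chrnb4 lay in the lower part of the range at both ages, between 25.8% and 44.2%.

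Chrna6 made up a larger part of the alpha transcripts in every P5 sample than in any E18 sample. Per kilobase, Chrna6 made up 67.1%, 64.5% and 73.1% of the 6 alpha genes in the E18 samples and 86.4%, 81.3% and 87.3% in the P5 samples, a difference of -16.8 percentage points (E18 minus P5). Chrna4 took 15.2%, 17.7% and 12.4% at E18 and 4.38%, 7.11% and 4.81% at P5, and Chrna3 took 13.9% ± 1.58 and 7.62% ± 1.31 (SD, n = 3 each). None of these 3 shares overlapped between the ages, and neither did those of Chrna5 and Chrna2. Shares within a sample are tied to each other, so a higher share of Chrna6 lowers the others. The share of Chrna3 was lower at P5 although its CPM was not. Each share without overlap had a two-sided exact permutation p of 0.1, the smallest possible. The adjusted value was 0.18 over the 9 shares compared, so no share could pass 0.05 in this design. Chrna7 kept a similar share, with 1.17% ± 0.0335 and 1.20% ± 0.332 (SD, n = 3 each; exact permutation p = 1).

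The mixture of beta transcripts did not separate the ages. Chrnb2 made up 65.3% ± 2.35 of the 3 beta genes at E18 and 69.0% ± 3.83 at P5, and Chrnb3 made up 33.0% ± 2.11 and 29.2% ± 3.98 (SD, n = 3 each; exact permutation p = 0.3 and 0.2). Chrnb4 took at most 2.13% in any sample. Summed per kilobase, the alpha genes reached 122, 126 and 145 at E18 and 293, 210.3 and 333 at P5, whereas the beta genes reached 44.5 to 49.4 and 46.2 to 55.0.

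**Figure D3:**
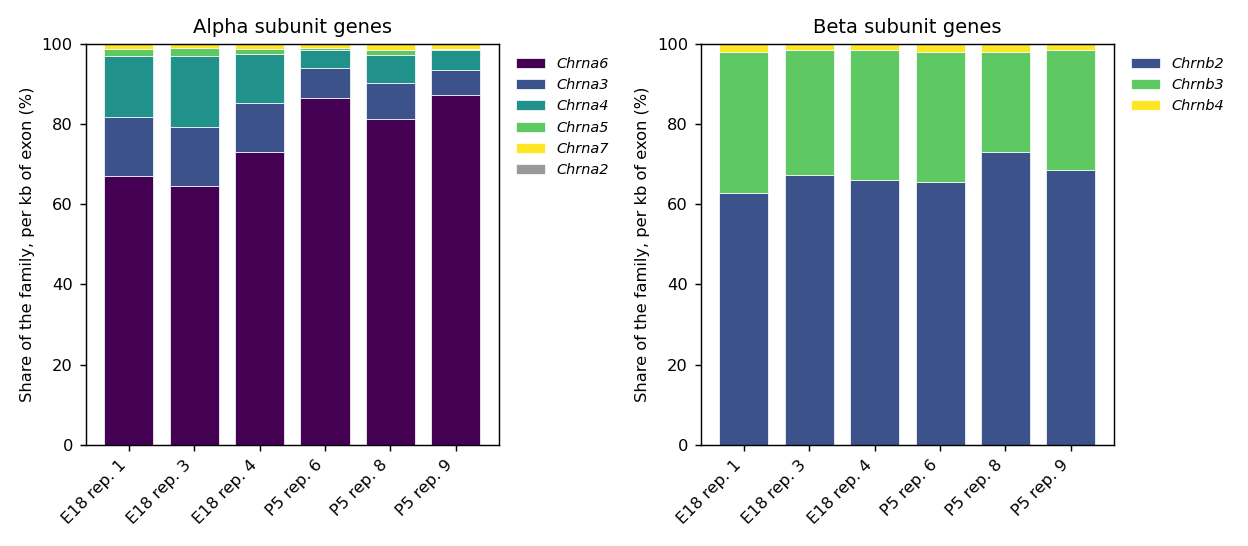
Share of each subunit gene in its family, per kilobase of exon (vertical axes, percent), in the 6 samples, with alpha genes left and beta genes right. Chrna6 fills 64.5% to 73.1% of the alpha bars at E18 and 81.3% to 87.3% at P5, while the beta bars divide similarly in all samples.

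The genes whose profile over the 6 samples was most like that of each subunit gene were found by the root mean square distance between log2 CPM values, each centred on its own mean. For Chrna6, out of 13425 genes that averaged 1 CPM or more and had reads in every sample, they were Sorl1 (distance 0.0429), a sorting receptor gene, and Slc17a6 (0.0625), which encodes the vesicular glutamate transporter of RGCs. Slc17a6 had 256, 275 and 316 CPM at E18 and 762, 531 and 939 CPM at P5, so P5 replicate 8 was again the lowest sample of its age. Dact3 and Adrbk2 were nearest to Chrna7, Fam208a and Cyp4f16 to Chrna3, Svop and Zswim3 to Chrnb2, and Iqcc to Chrnb3. For Chrna4, the nearest genes were 1700001K19Rik and Dnajb12. Among the subunit genes themselves, Chrna6 and Chrna7 were nearest to each other (0.297), as were Chrna3 and Chrnb2 (0.141). Chrna6 was not nearest to its neighbour Chrnb3.

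Proteins that assemble nicotinic receptors or bind them were described through 8 genes, of which 4 were lower at E18 and none was higher. Among all genes tested, 22.5% were lower and 20.8% were higher. Ric3, a chaperone of nicotinic receptors, above all of alpha 7, had 104, 114 and 114 CPM at E18 and 189, 191 and 255 CPM at P5 (log2 fold change -0.93, adjusted p = 0.000975 in edgeR). Vsnl1, a calcium sensor that binds alpha 4, Ywhah, a 14-3-3 protein, and Ubxn2a had log2 fold changes of -1.54, -0.91 and -0.66. Tmem35, which encodes the assembly chaperone NACHO, did not pass (103 ± 7.25 and 107 ± 11.7 CPM; SD, n = 3 each; log2 fold change -0.05, 95% interval -0.29 to 0.19). Unc50, Rer1 and Ubqln1 did not pass either. The median log2 fold change of the 8 genes was -0.41.

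Small proteins of the Ly6 family bind nicotinic receptors and tune their response. Of 7 such genes tested, 5 were lower at E18, 1 was higher and 1 did not pass, with a median log2 fold change of -0.50. The shares over all genes tested were 22.5% lower and 20.8% higher. Lypd6 had 49.8, 47.9 and 48.1 CPM at E18 and 118, 111 and 154 CPM at P5, without overlap (log2 fold change -1.40, adjusted p = 0.000231 in edgeR). Lynx1, a brake on nicotinic receptors in the adult brain, had 8.27 to 9.94 CPM at E18 and 84.6, 140.0 and 303 CPM in P5 replicates 8, 6 and 9. Lypd1 and Lypd6b had log2 fold changes of -0.79 and -0.50. The calls of Ly6e (-0.46) and of Slurp1 (0.94, from 20 to 48 reads per sample) were lost in 4 and 9 alternatives, with adjusted p of up to 0.094 and 0.19 in edgeR. For Slurp1 they included the omission of any 1 sample (0.0751 to 0.19). For Ly6e they were the omissions of E18 replicate 1 (0.0685), E18 replicate 3 (0.094), P5 replicate 6 (0.0555) and P5 replicate 9 (0.0666).

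Genes that make and recycle acetylcholine were higher at E18, all 3 of them, against 20.8% of all genes tested. Chat, which makes acetylcholine, had 5.59, 10.9 and 0.287 CPM in E18 replicates 1, 3 and 4 and 0.237, 0.762 and 0.797 CPM at P5, so replicate 4 lay among the P5 samples. Its log2 fold change was 3.22 (adjusted p = 0.0303 in edgeR). It lost the call without E18 replicate 3 (2.29, adjusted p = 0.108), P5 replicate 6 (0.117), P5 replicate 8 (0.0655) or P5 replicate 9 (0.0717), all in edgeR. Slc18a3, which loads it into vesicles, followed the same samples with 6.84, 9.05 and 1.1 CPM at E18 and 0.282 to 0.823 CPM at P5. Slc5a7, the choline transporter, was even across the E18 samples (8.55, 7.92 and 8.44 CPM) and stood at 4.33, 2.71 and 2.84 CPM at P5 (log2 fold change 1.33, adjusted p = 0.00162 in edgeR). These 3 genes also belong to the starburst markers, and the part of starburst cells in their values was not tested.

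Of 4 genes for the breakdown of acetylcholine, 2 were lower at E18, against 22.5% of all genes tested. Ache, the acetylcholinesterase of synapses, had 73.4, 68.3 and 87.2 CPM at E18 and 98.1, 78.0 and 150.0 CPM at P5 and did not pass (log2 fold change -0.51, adjusted p = 0.0862 in edgeR), although it passed without P5 replicate 8 and in DESeq2. Bche, a related esterase, had a log2 fold change of -1.24. Colq, the collagen tail that anchors acetylcholinesterase, had 1, 3 and 4 reads at E18 and 43, 52 and 105 at P5 (log2 fold change -4.60, 95% interval -5.88 to -3.33, adjusted p = 0.000625 in edgeR). Like Chrna2, it passed the filter only through P5, where it is high, so the filter favoured a difference and the call is a description only. Prima1, the membrane anchor of brain acetylcholinesterase, did not pass.

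**Figure D4:**
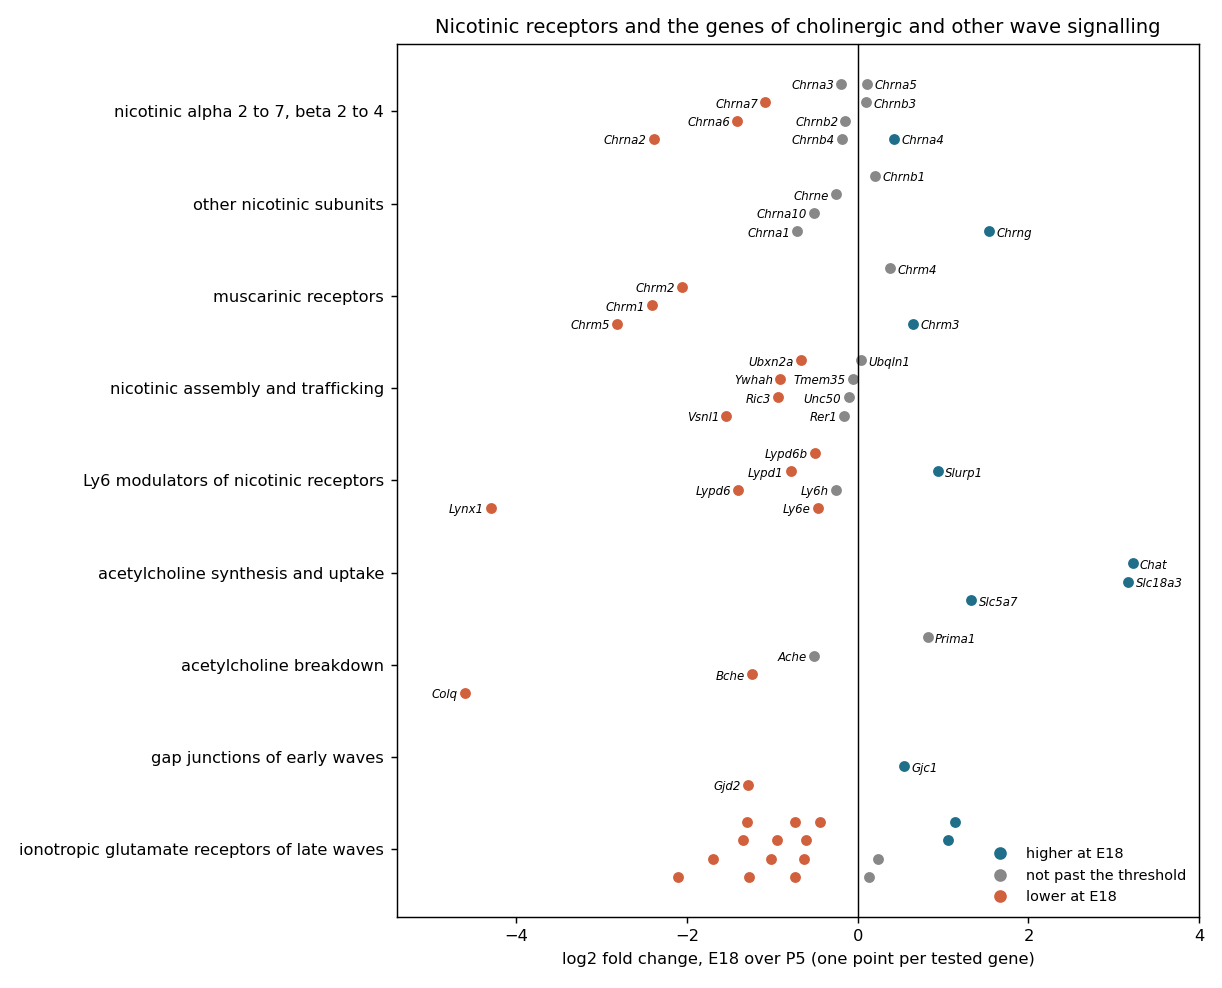
Log2 fold change, E18 over P5 (horizontal axis), of every tested gene in the lists of cholinergic signalling and of gap junction and glutamate receptor genes, with 1 point per gene coloured by the side of the threshold. Genes of acetylcholine synthesis lie at 1.33 to 3.22, while Lynx1 (-4.29) and Colq (-4.60) lie farthest to the left.

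Receptor genes for the earlier and later kinds of waves were set beside the nicotinic genes. Gjd2, the neuronal connexin 36, was lower at E18, with 70.7, 68.7 and 82.8 CPM against 191, 133 and 216 CPM at P5 (log2 fold change -1.28, adjusted p = 0.000903 in edgeR). Gjc1, connexin 45, was higher at E18 (log2 fold change 0.55, adjusted p = 0.0415 in edgeR), and this call was lost in each omission of 1 sample except that of P5 replicate 8, with adjusted p of 0.0631 to 0.134 in edgeR. Gja1, connexin 43 of glia, had at most 15 reads in any sample and was not tested. Of 16 ionotropic glutamate receptor genes, 12 were lower at E18, 2 were higher and 2 did not pass, with a median log2 fold change of -0.74. Over all genes tested, 22.5% were lower and 20.8% were higher. Among the glutamate receptor genes that passed, the log2 fold change (E18 over P5) was lowest for Grin2d (-2.10) and Grik3 (-1.70), which were higher at P5, and highest for Grik2 (1.14) and Grin3b (1.06).

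The identity of the cells was checked with marker sums. The 15 RGC markers summed to 9899 to 11600 CPM at E18 and 10080 to 11110 CPM at P5, and Rbpms, which labels RGCs, had 276 to 320 CPM at E18 and 291 to 329 CPM at P5 and did not pass the test. Of the 15, 5 were higher at E18, 5 were lower and 5 did not pass, against 20.8% higher and 22.5% lower among all genes tested. Thy1, the antigen used for panning, had 212, 217 and 312 CPM at E18 and 500.0, 469 and 690.0 CPM at P5 (log2 fold change -1.16, adjusted p = 0.00197 in edgeR). Nefh, a neurofilament gene, and Slc17a6 were also lower (-1.89 and -1.40), whereas Isl1, a transcription factor gene, was higher (1.10). The 14 markers of dividing cells summed to 346, 141 and 89.0 CPM in E18 replicates 1, 3 and 4 and to 64.6 to 84.3 CPM at P5, and 12 progenitor markers to 308, 157 and 45.02 CPM against 25.8 to 39.3 CPM. Amacrine markers (11 genes) summed to 1829 to 2025 CPM at E18 and 2371 to 2718 CPM at P5. Bipolar, photoreceptor and microglial markers stayed at or below 97.8, 44.8 and 5.34 CPM. Müller glia and astrocyte markers summed to 477 to 605 CPM. Endothelial and pericyte markers summed to 72.5, 64.5 and 16.4 CPM in E18 replicates 1, 3 and 4 and to 14.5 to 17.7 CPM at P5, and Kdr alone had 69.5, 62.9 and 14.1 CPM in the E18 samples. Of the 7 endothelial and pericyte markers tested, 1 was higher at E18, 3 were lower and 3 did not pass. The part of the cell types other than RGCs in the values of the subunit genes was not tested.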

How the data were processed

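RNA of 6 samples was sequenced by the authors as 100-base paired-end reads (TruSeq with RiboZero Gold), aligned to mm10 with STAR 2.4.0 and counted on RefSeq genes with HT-seq 0.6.1. The labels name polyA RNA. The values analysed are raw counts per gene, as deposited by the authors. The table also holds normalized counts (a signal scaled for library size), log2 fold changes, p-values with false discovery rates and a rank score deposited by the authors, none of which was used. The count column assigned to E18 replicate 1 is also numbered 2 and 5 in its name.

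Counts were tested with edgeR 4.0.16 (R 4.3.3; TMM, filterByExpr with a minimum count of 10, quasi-likelihood test, all 6 samples, no covariate). CPM use TMM-scaled libraries. Standard errors and 95% intervals come from this model. On simulated counts of 16289 genes, 126 of 200 genes changed 2-fold were recovered with 8 false calls. Samples of one age differed by more than sampling noise (chi-square per degree of freedom 30.5 to 141). Shares were tested by exact permutation in scipy 1.17.1. Lengths and positions are from GENCODE M21. Genes named are the 9 subunits, the related lists and the 2 nearest profiles, of which 1 is not reported here. Promoter motifs were chosen after the data were seen. Members and lists were chosen with earlier results of these data known. Slurp2 was not analysed here.

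The fit was repeated with DESeq2 1.42.0, with the likelihood ratio and the exact test of edgeR, after scaling to the upper quartile or to library size alone (the last added after the data were seen), and with other count filters, other lengths and the omission of each sample.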

Additional observations from a re-analysis of the deposited data

How the results depend on the processing

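Over 13 alternatives, the calls of Chrna6 (log2 fold change -1.62 to -1.24) and Chrna7 (-1.19 to -1.01) were kept, in DESeq2 as well as in edgeR, and those of Chrna5, Chrnb2, Chrnb3 and Chrnb4 did not pass in any of them. With 1 sample omitted at a time, between 2 and 5 subunit genes passed, and between 4575 and 8796 of all genes did, with the lowest counts of both without E18 replicate 3 and the highest without P5 replicate 8. Under the other alternatives, 3 to 4 subunit genes and 6331 to 7634 genes passed, and the filter of 1 CPM left Chrna2 untested. The direction reversed for Chrnb3 without P5 replicate 8 (range over the omissions -0.0643 to 0.1996), for Chrna5 without P5 replicate 9 (-0.0123 to 0.266) and for the alpha share of Chrna7 without P5 replicate 8 (-0.157 to 0.152 percentage points, E18 minus P5). The causes were not tested. The alpha share of Chrna6 differed by -21.2 to -14.9 percentage points under all lengths and omissions. No paired analysis was possible because the ages share no replicate number. Chrna2 rests on 1 to 23 reads per sample, which limits its precision.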

Other observations

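Muscarinic receptors, the other receptors for acetylcholine, which signal through G proteins, were also measured. Of the 5 genes, 3 were lower at E18, 1 was higher and 1 did not pass edgeR's quasi-likelihood test. In all genes tested, 22.5% were lower and 20.8% were higher. Chrm3, the most abundant of them by CPM, had 20.5, 22.2 and 23.7 CPM at E18 and 15.8, 12.6 and 13.9 CPM at P5, without overlap (log2 fold change 0.65, adjusted p = 0.00384 in edgeR). Chrm5 had 0.193, 0.161 and 0.210 CPM at E18 and 1.23, 0.935 and 1.82 CPM at P5 (log2 fold change -2.82, adjusted p = 0.000614 in edgeR). Chrm2 had 12 to 20 reads per sample at E18 and 33 to 106 at P5. Chrm1 passed the expression filter only through P5, where it is high, and its call (log2 fold change -2.41) was lost without E18 replicate 1 (-2.22, adjusted p = 0.0608), E18 replicate 4 (-2.25, 0.0564) or P5 replicate 9 (-1.39, 0.0697), all in edgeR.

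The nicotinic subunits of muscle and of the inner ear summed to 2.54 to 2.82 CPM at E18 and 2.85 to 3.13 CPM at P5. Chrnb1, which is used in muscle, reached at most 191 reads in a sample, and its ages overlapped. Chrna9 had at most 3 reads in any sample and none at E18, and Chrnd had at most 3. Of the 5 genes tested, 1 was higher at E18, against 20.8% of all genes tested. This gene, Chrng, had 10 to 17 reads at E18 and 2 to 7 at P5. It passed the expression filter only through E18, where it is high, so the filter favoured a difference and the call is a description only. Its call was lost in 7 alternatives with adjusted p of up to 0.158 in edgeR or DESeq2, among them the omission of E18 replicate 1 (0.0724), E18 replicate 3 (0.0995), E18 replicate 4 (0.131), P5 replicate 6 (0.0796) and P5 replicate 9 (0.125).

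Receptors for GABA, glycine and serotonin belong to the same superfamily of channels as nicotinic receptors. Of 21 such genes tested, 15 were lower at E18, 2 were higher and 4 did not pass in edgeR, with a median log2 fold change of -1.18. Across all genes tested, 22.5% were lower and 20.8% were higher. Gabrg1, a GABA receptor subunit, had 4.69, 4.42 and 4.84 CPM at E18 and 52.6, 50.6 and 58.5 CPM at P5. Htr3a, the serotonin-gated subunit, had at most 0.723 CPM in any sample. Gabrd, a GABA receptor subunit outside synapses, followed the samples with high starburst sums, with 4.92, 8.49 and 0.0884 CPM in E18 replicates 1, 3 and 4 and 0.396 to 0.840 CPM at P5. The call of Gabrd (adjusted p = 0.0492 in edgeR) was lost in 8 alternatives, among them the omission of any 1 sample except E18 replicate 4, with adjusted p of up to 0.164. That of Gabrq (0.0419 in edgeR) was lost in the omission of any 1 sample except P5 replicate 8, with adjusted p of up to 0.144.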
